A study of Homo sapiens with 8 samples.

Results

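The comparison described here is the knockdown of SDHA in cells that already lacked SDHB, made as 3 SDHBKO SDHAlow samples against 3 SDHBKO samples of a series of 8. Its members are all genes with a mean normalized count above 5 over the 8 samples, which were 7550 of the 58051 genes in the files. All samples are MDA231 (MDA-MB-231), an established human breast cancer cell line, collected untreated at 70% confluency in full medium. SDHBKO cells were made with a TALEN nuclease directed at exon 1 of SDHB and selected with hygromycin. SDHBKO SDHAlow cells are SDHBKO cells that received an SDHA shRNA plasmid and were selected with puromycin, so the SDHB knockout is shared by both groups. The 2 remaining samples are unmodified parental cells, whose values are set beside the others and served to estimate the spread. The labels number biological replicates without saying whether they came from separate sublines, do not say which of the study's shRNAs was used, and name no empty vector for the SDHBKO samples. Effects of the knockdown, of the plasmid with its selection and of growth as separate cell populations cannot be told apart from each other, and p-values measure the spread between these samples, which may be technical.

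Complex II, or succinate dehydrogenase, oxidizes succinate to fumarate in the citric acid cycle and passes the electrons to ubiquinone in the respiratory chain. SDHA is the catalytic subunit that carries the flavin, SDHB holds the iron-sulfur clusters, SDHC and SDHD anchor the complex in the inner mitochondrial membrane, and the SDHAF proteins help to assemble it. Without SDHB the full complex cannot form, and the study examined what SDHA does in a smaller assembly that remains in such cells.

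Libraries captured the 3' end of each polyadenylated RNA, and 1 read therefore stands for the end of 1 transcript and levels do not depend on its length. Between 773042 and 1427141 reads per sample were counted on genes, and 3 counts corresponded to 2.10 to 3.88 counts per 1000000 reads (CPM). SDHBKO SDHAlow replicate 2 was the deepest library and stood apart from its group: the chi-squared statistic per degree of freedom between replicates was 10.6 and 11.3 for the pairs with it, 3.28 for the other pair, and 4.92 to 5.82 among SDHBKO samples. The share of reads that mapped to several places was 9.72% to 12.3% in SDHBKO SDHAlow and 14.4% to 16.1% in SDHBKO samples, and its part in the results was not tested. All 10 markers listed for MDA231, such as VIM and CD44, were detected, with a summed level of 5918 to 6355 CPM in SDHBKO SDHAlow and 5974 to 6647 CPM in SDHBKO samples. ESR1 and PGR, the hormone receptors of luminal breast cells, were at 0 in all samples, 9 of 10 blood markers and 7 of 10 kidney and liver markers were at 0 as well, and neither of these marker lists summed to more than 4.20 CPM in the 6 samples compared. The summed level of the 10 luminal markers was 364 to 418 CPM in SDHBKO SDHAlow and 287 to 303 CPM in SDHBKO samples, with no overlap, and its part in the results was not tested.

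SDHA (ENSG00000073578, chr5:218303-257082 in GRCh38) was the check on the labels. It stood at 8.45, 12.7 and 17.8 CPM in the SDHBKO SDHAlow samples and at 148, 135 and 151 CPM in the SDHBKO samples, beside 74.0 and 91.6 CPM in parental cells. The groups lay far apart, at no more than 17.8 CPM against no less than 135 CPM. SDHBKO SDHAlow cells had 0.0911 times the level of SDHBKO cells, a log2 fold change of -3.46 with a standard error (SE) of 0.28 and an adjusted p of 1.16e-07 by edgeR's quasi-likelihood test with Benjamini-Hochberg adjustment. In bulk RNA, fewer cells that express a gene and less RNA per cell cannot be told apart. Near-identical SDHA pseudogenes exist in the genome, so a part of its reads may not have been counted. SDHB itself gave 0 to 3 counts in the 6 samples and 4 and 3 counts in the parental samples, so the knockout could not be checked in these libraries. SDHD had 0 to 3 counts in each sample and SDHAF3 none, and neither was tested. SDHC, SDHAF1 and SDHAF2 did not pass the test, with log2 fold changes of 0.58, 0.30 and 0.00. SDHAF4, which binds free SDHA during assembly, stood at 12.1, 11.9 and 16.7 CPM in SDHBKO SDHAlow and 6.84, 2.22 and 5.40 CPM in SDHBKO samples. These values did not overlap, but the log2 fold change of 1.49 (SE 0.58) did not pass the test at this depth (adjusted p = 0.285).

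Across all tested genes, 114 genes differed between SDHBKO SDHAlow and SDHBKO cells at an adjusted p below 0.1, which is 1.51% of those tested. Of these, 90 were lower in SDHBKO SDHAlow cells (1.19%) and 24 were higher (0.318%), while 915 genes had an unadjusted p below 0.05. Lower, higher, fell and rose are relative to SDHBKO cells throughout. The parental mean was also below the SDHBKO mean in 86 of the 90 lower genes, and also above it in 23 of the 24 higher genes. The SDHBKO samples are the reference in both comparisons and the genes were chosen on them, which favours such agreement. No such share was taken over all tested genes, and these shares were not tested. The samples of both groups did not overlap in 113 of the 114 genes, against 17.4% of all tested genes. The exception was CHD3, where SDHBKO replicate 1 (45.2 CPM) fell among the SDHBKO SDHAlow values. The median absolute log2 fold change was 1.11 in the genes that differed and 0.31 over all tested genes, and 105 of the 114 code for proteins. The genes were chosen on these same samples, so the lack of overlap and the larger changes follow from the choice and are no separate evidence. The number of genes depended on single libraries. It was 362 without SDHBKO SDHAlow replicate 2, of which 109 were among the 114. It was 39 without SDHBKO replicate 1, 40 without SDHBKO replicate 3, 73 without SDHBKO SDHAlow replicate 1, 47 without SDHBKO SDHAlow replicate 3, and 62 or 63 without parental replicate 1 or 2. The genes that passed the test whichever of the 8 samples was left out were 23 lower ones, SDHA, SIRPA, TRBC2, TUBA4A, TAGLN, SYNPO, TNFRSF21, ADAP1, RBCK1, SLC25A11, MRPS26, CST3, CAMTA2, PTMS, CDC25B, PFDN5, CENPV, NSFL1C, IGFBP4, PYGB, P2RX5, ITPA and FXR2, and 3 higher ones, SRF, UCA1 and NTM. All other genes named below as lower or higher lost the call without at least 1 of the samples. In simulated data of the same size, 53.5% of genes changed by 1 on the log2 scale were recovered and 99.5% of those changed by 2, so that genes with changes near those found here could be missed.

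Many of the lower genes were near neighbours on a chromosome. Tested genes were ordered by position, and genes that changed in the same direction with at most 10 other tested genes between neighbours were joined. Chains of at least 3 were taken as runs, and all other genes as scattered. There were 9 runs with 43 genes on 5 chromosomes, all of them lower in SDHBKO SDHAlow cells, which is 47.8% of the lower genes. The other 71 genes were scattered, 47 of them lower on 17 chromosomes and 24 higher on 13 chromosomes. Because the runs were found from the same differences that they summarize, they are given as a description without a test. The genes inside them that did not pass the test are given beside them for that reason. Leaving out SDHBKO replicate 1 or 3 left 1 run, with 9 or 6 genes, and leaving out SDHBKO replicate 2 left 4 runs with 21 genes. Without SDHBKO SDHAlow replicate 1 there were 3 runs with 15 genes, without replicate 2 there were 26 with 149 genes, without replicate 3 there were 2 with 11 genes, and without either parental sample 4 with 19 genes. A run on 20p that held RBCK1, CDC25B and the genes between them was found each time.

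**Figure D1:**
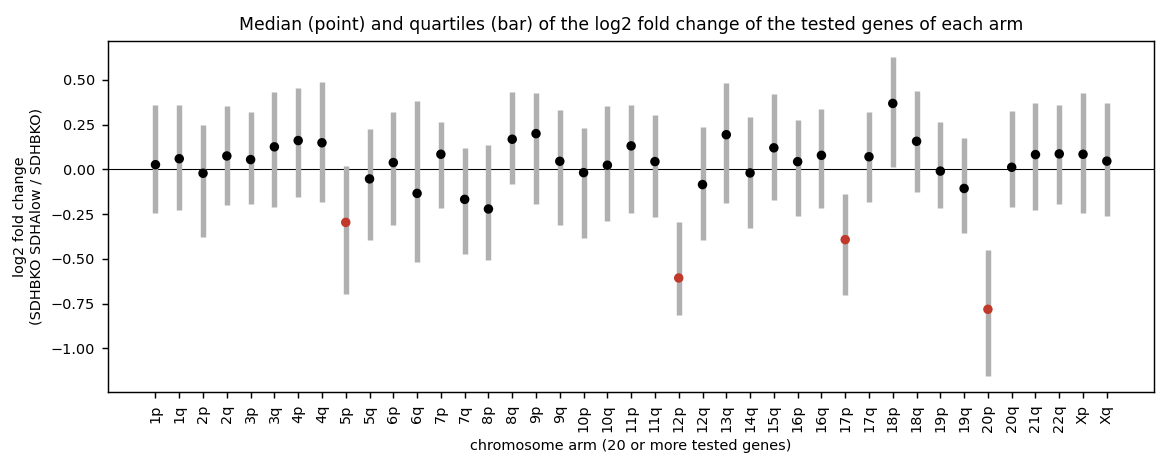
Median log2 fold change (point) and quartiles (bar) of SDHBKO SDHAlow over SDHBKO for the tested genes of each of 41 chromosome arms with at least 20 tested genes. The 4 arms in red, 5p, 12p, 17p and 20p, have medians between -0.78 and -0.30, whereas the 37 others lie between -0.22 and 0.37.

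The short arms of chromosomes 20, 12, 17 and 5 held most of the run genes, as the plot of medians by arm shows. These 4 arms carried 350 tested genes, 42 of the 90 lower genes and none of the 24 higher ones. On 20p, 19 of 72 tested genes were lower and the median log2 fold change was -0.78, with 69 of 72 genes below 0. On 20q, none of 177 tested genes differed, and the median was 0.01. On 12p, 8 of 76 genes were lower and the median was -0.61, with 69 genes below 0. On 17p, 10 of 148 genes were lower and the median was -0.39, with 128 genes below 0, beside a median of 0.07 on 17q. On 5p, 5 of 54 genes were lower, SDHA among them, and the median was -0.30, with 40 genes below 0. Over all tested genes, 48.9% had a log2 fold change below 0 and the median was 0.01. The genes of these arms that did not pass the test had medians of -0.61 on 20p, -0.52 on 12p, -0.35 on 17p and -0.23 on 5p.

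**Figure D2:**
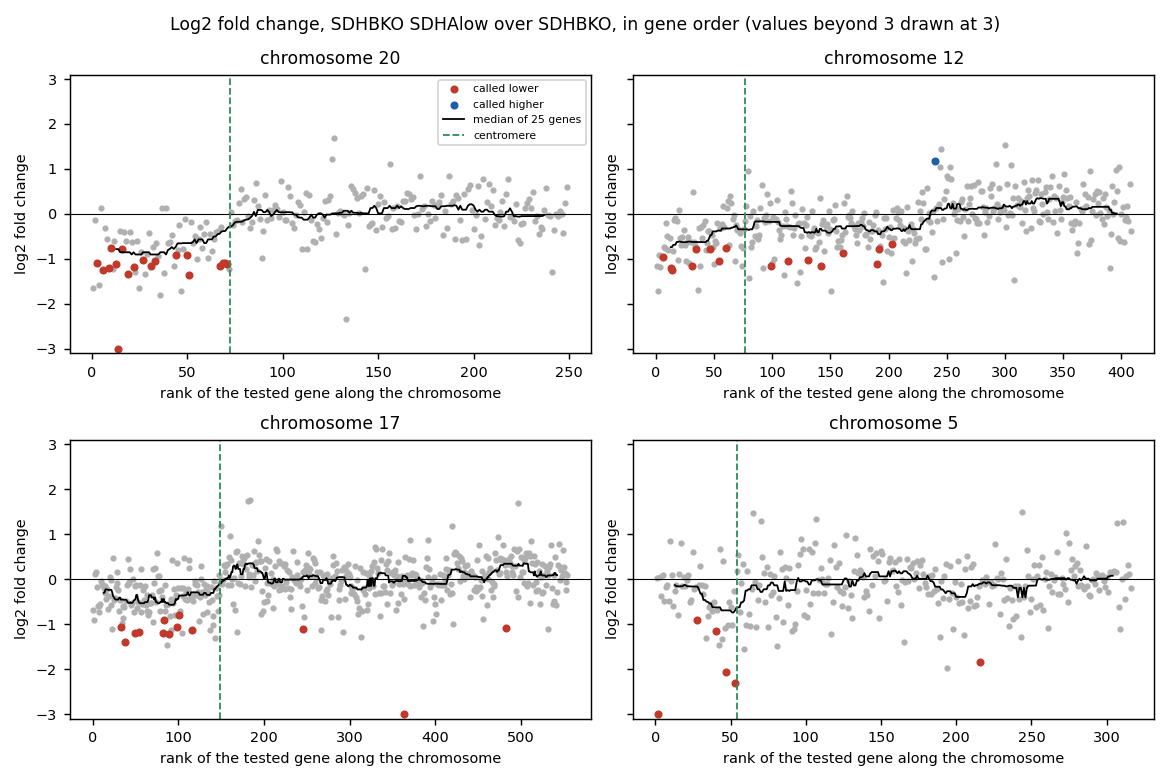
Log2 fold change of SDHBKO SDHAlow over SDHBKO for each tested gene in order along chromosomes 20, 12, 17 and 5 (x axis, rank of the gene; y axis, log2 fold change, values beyond 3 drawn at 3), with genes that passed the test in red (lower) or blue (higher), the median of 25 neighbouring genes as a line and the centromere as a dashed line. The line lies near -0.8 over much of 20p and near 0 on 20q, and on chromosome 12 it stays below 0 past the centromere and rises above 0 near the middle of the long arm.

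Medians were also taken over every 25 consecutive tested genes, 6987 windows in all. Windows with a median below -0.5 were on chromosomes 20 (53 windows), 17 (39), 12 (34) and 5 (24) and on no other chromosome. The lowest window was at -0.90 on chromosome 20 and the highest at 0.50 on chromosome 6, with 1% of windows below -0.63 and 1% above 0.38. On the long arm of chromosome 12, the 128 tested genes up to the end of the run that held CDK4 had a median of -0.31 and included all 8 lower genes of the arm. The 204 genes beyond it had a median of 0.10, and the gene among them that differed, NDUFA12, was higher. The cut was placed at CDK4, the lower gene furthest along the arm, so the split of lower genes follows from the choice.

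The longest run lay on 20p (chr20:325552-17682295) and reached from SOX12 to RRBP1, with 15 lower genes among 49 tested. Of these 49, 46 were below 0 with a median of -0.85, 32 had all SDHBKO SDHAlow samples below all SDHBKO samples and none the reverse, where 8.69% of all tested genes had the former and 8.7% the latter. The 34 that did not pass the test had a median of -0.64, with 31 below 0. SIRPA, the receptor for the CD47 signal on other cells, had the largest fall of the genes that passed the test. It had 0, 0 and 1.11 CPM in SDHBKO SDHAlow and 19.2, 17.8 and 19.4 CPM in SDHBKO samples, beside 16.2 and 5.31 CPM in parental cells. That is 1 read in 3 libraries against 48 reads, so SDHBKO cells had 57.1 times the level of SDHBKO SDHAlow cells with a 95% exact counting interval from 9.76 to 2300 (adjusted p = 0.00313). The other 14 genes fell by less, between -1.35 for RRBP1 and -0.77 for PSMF1.

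These 14 genes belong to several processes. CDC25B, a phosphatase that activates cyclin-dependent kinases, had 163, 214 and 216 CPM in SDHBKO SDHAlow and 469, 411 and 441 CPM in SDHBKO cells (parental 381 and 335), a log2 fold change of -1.15 (SE 0.19, adjusted p = 0.00382). MAVS, the mitochondrial adaptor of antiviral RNA sensing, had 128, 119 and 128 against 239, 227 and 312 CPM (parental 133 and 187), a log2 fold change of -1.05. RBCK1, a part of the linear ubiquitin ligase, had 156, 191 and 160.5 against 416, 329 and 466 CPM and fell by 1.25 on the log2 scale. In none of these did the groups overlap. MRPS26, a protein of the mitochondrial ribosome, had 89.3, 105 and 101 CPM in SDHBKO SDHAlow and 265, 186 and 222 CPM in SDHBKO cells (parental 98.3 and 96.9), a log2 fold change of -1.18. ITPA, which removes inosine triphosphate from the nucleotide pool, had 280.0, 247 and 231 against 549, 502 and 503 CPM (parental 201 and 277), a log2 fold change of -1.04. SNRPB, a core protein of spliceosomal particles, was at 521, 706 and 528 against 1089, 862 and 1077 CPM, a log2 fold change of -0.78. The run also held DSTN (actin filament turnover, -0.91), FERMT1 (integrin activation, -0.92), RRBP1 (ribosome binding at the endoplasmic reticulum, -1.35), NSFL1C (cofactor of the p97 ATPase, -1.12), PSMF1 (proteasome regulator, -0.77), the transcription factor SOX12 (-1.08), PCED1A (-1.33) and FAM110A (-1.21), given as log2 fold changes.

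Between these genes lay others that did not pass the test but had no overlap between groups. IDH3B, a subunit of the NAD-linked isocitrate dehydrogenase of the citric acid cycle, stood at 280.0, 410.4 and 321 CPM in SDHBKO SDHAlow and 480.3, 521 and 546 CPM in SDHBKO samples (log2 fold change -0.61, adjusted p = 0.169). IDH3B lies directly next to NOP56 in position, so reads near their boundary are uncertain. FKBP1A, the protein that binds rapamycin, had 612, 773 and 598 against 831, 1083 and 1092 CPM (-0.60, adjusted p = 0.170). JAG1, a Notch ligand, was low in every sample at 3.62, 3.73 and 3.34 against 8.21, 16.7 and 10.8 CPM (-1.71, adjusted p = 0.213). The 3 tested genes of the run with a log2 fold change above 0 were TRIB3 (0.12), PRNP (0.14) and TMEM230 (0.14), and their groups overlapped. Closer to the centromere, 4 of 5 tested genes of a further 20p run (chr20:23626706-25390835) were lower. CST3, the secreted protease inhibitor cystatin C, had 168, 222 and 179 CPM in SDHBKO SDHAlow and 405, 441 and 438 CPM in SDHBKO samples, beside 228 and 243 CPM in parental cells, a log2 fold change of -1.17 (SE 0.19, adjusted p = 0.00350). PYGB, a glycogen phosphorylase, had 107, 73.9 and 106 against 224, 213 and 170.5 CPM, with parental cells at 231 and 249.6 CPM, a log2 fold change of -1.09. ABHD12 (a lipase of lysophosphatidylserine) and ENTPD6 (a nucleotidase) had log2 fold changes of -1.11 and -1.10. PYGB and ABHD12 end toward each other on opposite strands, and the strand setting of the counting is not given in the sources used here.

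There were 2 runs on 12p. In the one nearer the chromosome end (chr12:1688574-3044950), all 9 tested genes were below 0, with a median of -0.76. TEAD4, a transcription factor that binds DNA for YAP and TAZ, had 36.2, 48.5 and 43.5 CPM in SDHBKO SDHAlow and 127, 76.7 and 97.1 CPM in SDHBKO samples (parental 47.4 and 67.7), a log2 fold change of -1.21 (SE 0.26, adjusted p = 0.0265). ADIPOR2, a receptor for adiponectin, had a log2 fold change of -0.97, and the unnamed ENSG00000250899, which lies just beyond the end of TEAD4, -1.24. The other run (chr12:10699089-14961728) had 13 of 14 tested genes below 0 with a median of -0.53. GPRC5A, an orphan receptor induced by retinoic acid, had 222, 293 and 241 against 456, 451 and 659 CPM (parental 297 and 393), a log2 fold change of -1.05. ARHGDIB and YBX3, a cold shock protein that binds nucleic acids, had log2 fold changes of -0.75 and -0.79. Outside the runs, PTMS (-1.16) and TPI1, the glycolytic triosephosphate isomerase, were lower on the same arm. TPI1 had 666, 582 and 761 CPM in SDHBKO SDHAlow and 1211, 1091 and 1139.5 CPM in SDHBKO samples, with parental cells at 1069 and 1156 CPM.

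The run on 12q spanned 0.66 Mb (chr12:57095408-57756013), and all of its 14 tested genes were below 0 with a median of -0.60. CDK4, the kinase that drives cells from G1 into S phase with D-type cyclins, had 1038, 962 and 737 CPM in SDHBKO SDHAlow and 1649, 1262 and 1469 CPM in SDHBKO samples, beside 733 and 811 CPM in parental cells. The groups did not overlap, and CDK4 fell by 0.68 on the log2 scale (SE 0.19, adjusted p = 0.0987), close to the threshold. SHMT2, which splits serine for mitochondrial folate metabolism, had 228, 231 and 194 against 365, 339 and 427 CPM (parental 244 and 242), a log2 fold change of -0.79. STAT6, the transcription factor of interleukin-4 signalling, had 50.7, 73.1 and 49.0 against 134, 117 and 127 CPM (parental 56.7 and 61.1), a log2 fold change of -1.11. In the same run DDIT3, a stress-induced transcription factor, had 6.03, 5.97 and 11.1 against 31.5, 16.7 and 18.3 CPM. It did not pass the test (log2 fold change -1.51, adjusted p = 0.194). DDIT3 overlaps MARS1 and MBD6 in position, so reads could be shared between them.

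On 17p, 20 of 22 tested genes of the first run (chr17:3672199-4987675) were below 0, with a median of -0.55. SLC25A11, the mitochondrial carrier that exchanges oxoglutarate for malate, had 119, 143 and 95.8 CPM in SDHBKO SDHAlow and 291, 231 and 308 CPM in SDHBKO samples, beside 165 and 135 CPM in parental cells. It fell by 1.21 on the log2 scale (SE 0.21, adjusted p = 0.00715). CAMTA2, a calmodulin-binding transcription activator, CYB5D2, a heme-binding protein, and P2RX5, an ATP-gated channel, had log2 fold changes of -1.17, -1.41 and -1.07. The other 17p run (chr17:7583529-8290092) had 18 of 20 tested genes below 0, with a median of -0.64. FXR2, an RNA-binding relative of FMR1, had 199, 208 and 225 against 394, 428 and 363 CPM (parental 168 and 208), a log2 fold change of -0.91. MPDU1, needed for the use of dolichol-linked mannose, had 88.1, 101 and 80.2 against 287, 129 and 208 CPM, a log2 fold change of -1.20. MPDU1 and FXR2 overlap at their 3' ends on opposite strands, so reads could be shared between them. CHD3, a chromatin remodeller, had 47.1, 53.7 and 36.8 against 45.2, 130.1 and 146 CPM, and RANGRF, a factor of Ran-dependent transport, and LINC00324 had log2 fold changes of -0.80 and -1.06.

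The last runs were less uniform. On 5p (chr5:34905260-43707405), 12 of 14 tested genes were below 0 with a median of -1.02, but samples of the same group differed. The median of the 14 genes, as the log2 difference from the mean of the SDHBKO samples, was -0.67, -1.46 and -0.32 in the SDHBKO SDHAlow samples and 0.31 and -0.62 in the parental samples. NNT, the transhydrogenase that makes mitochondrial NADPH, had 3.62, 3.73 and 3.34 CPM in SDHBKO SDHAlow and 23.3, 24.5 and 7.55 CPM in SDHBKO samples (parental 24.3 and 9.29), a log2 fold change of -2.31. RAD1, a part of the clamp of the DNA damage checkpoint, and the unnamed ENSG00000251257 had log2 fold changes of -1.15 and -2.06. On 7q, 3 lower genes stood within 6.19 Mb (chr7:142801041-148987248), but 5 of the 9 other tested genes between them were below 0 and their median was -0.08. TRBC2, a constant segment of the T cell receptor beta locus, had 2.41, 5.22 and 0 CPM in SDHBKO SDHAlow and 78.0, 70.0 and 93.9 CPM in SDHBKO samples, beside 42.8 and 41.2 CPM in parental cells. In all, 9 reads stood against 207, a ratio of 27.3 of SDHBKO over SDHBKO SDHAlow with a 95% exact counting interval from 14.1 to 60.6. The Y RNAs RNY1 and RNY4, small noncoding RNAs of Ro ribonucleoproteins, had log2 fold changes of -1.37 and -2.50. Counts of TRBC2 and of the Y RNAs are uncertain, because TRBC1 and many Y RNA copies elsewhere are nearly identical. RNY1 and RNY4 are also short, at 113 and 96 bases, and reads from libraries of polyadenylated RNA may not reflect their level.

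**Figure D3:**
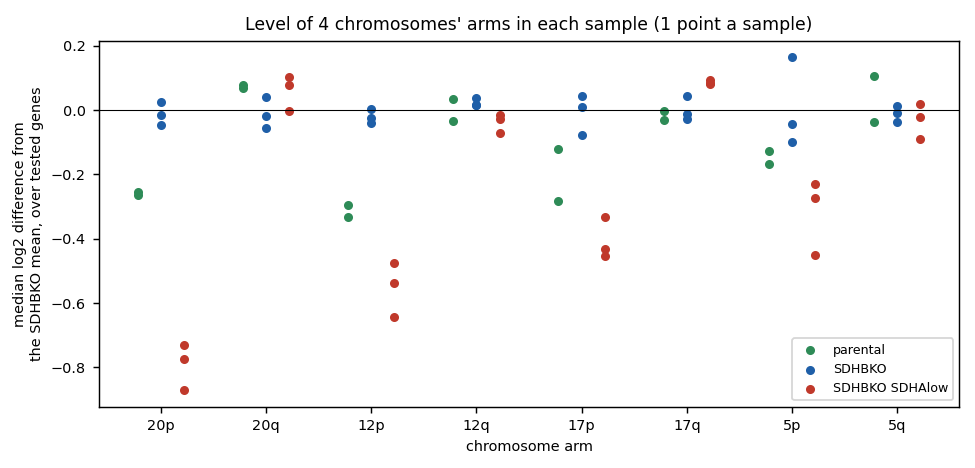
Level of the short and long arms of chromosomes 20, 12, 17 and 5 in each sample, as the median over tested genes of the log2 difference from the SDHBKO mean (y axis), 1 point a sample. On 20p, 12p and 17p the 3 SDHBKO SDHAlow samples lie below all SDHBKO and parental samples, and the parental samples lie below the SDHBKO samples.

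The level of an arm in each sample was taken as the median log2 difference of its tested genes from the SDHBKO mean. For 20p it was -0.87, -0.77 and -0.73 in the SDHBKO SDHAlow samples, -0.05, -0.01 and 0.03 in the SDHBKO samples and -0.26 and -0.25 in the parental samples. On 12p the SDHBKO SDHAlow samples stood at -0.48, -0.64 and -0.54 and the parental samples at -0.29 and -0.33. On 17p they stood at -0.45, -0.33 and -0.43, with parental samples at -0.28 and -0.12. Thus SDHBKO SDHAlow samples were below parental samples on these arms, and all 3 replicates shared the direction. For the 12q run, the values were -0.49, -0.64 and -0.67 in SDHBKO SDHAlow and -0.73 and -0.71 in parental samples. Both lay below the SDHBKO samples. The run was chosen for lower SDHBKO SDHAlow values, so their side follows from the choice. For its genes that did not pass the test they were -0.37, -0.46 and -0.41, and -0.72 and -0.57 in parental samples. The SDHBKO samples are the reference for all of these values. The number of gene copies was not measured, so a change in copies and a change in transcription per copy cannot be told apart here.

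The 71 scattered genes were grouped by the best known role of each protein, after their values had been seen and without a test. Of the 47 lower ones, 5 lay on the 4 short arms named above but outside the runs: SDHA, BASP1, PTMS, TPI1 and CENPV. A further 5, PRKAG1, CERS5, KRT81, PFDN5 and ORMDL2, lay on 12q in the stretch up to the end of its run. In that stretch 106 of 128 tested genes were below 0 with a median of -0.31. The stretch was cut at the run, and these values include the 8 lower genes themselves. Whether these 5 belong to a regional change was not tested. The groups with lower genes only were the cytoskeleton (6 genes), GTPase and phosphatase signalling (7), membrane traffic, caveolae and keratin (4), and transporters and channels (3). Those with higher genes only were the secretory pathway and matrix assembly (4), long noncoding RNAs (3) and ubiquitin ligases (2). The other groups held both, among them small molecule metabolism and redox with 9 lower and 7 higher genes, and secreted and surface signalling with 8 lower and 2 higher.

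Among the cytoskeletal genes, TUBA4A, an alpha-tubulin, changed most. It had 4.83, 4.48 and 7.80 CPM in SDHBKO SDHAlow and 125, 113 and 108 CPM in SDHBKO samples, beside 89.1 and 54.4 CPM in parental cells, a log2 fold change of -4.33 (SE 0.34, adjusted p = 9.70e-08). This was the lowest adjusted p of all genes, and the groups were at least 108 against at most 7.80 CPM. TAGLN (transgelin), an actin-binding protein of contractile cells, had 0, 3.73 and 1.11 against 21.9, 15.6 and 21.6 CPM, which is 6 reads against 50 and a ratio of 9.91 of SDHBKO over SDHBKO SDHAlow (95% exact counting interval 4.25 to 28.3). Its relative TAGLN2 was far more abundant, with 678, 687 and 384 against 1393, 876 and 1082 CPM (parental 363 and 390.3), and fell by 0.94 on the log2 scale. SYNPO (synaptopodin, -1.85), MISP (spindle positioning, -1.91) and CENPV (centromere protein V, -1.13) complete the group. ANKRD1, a muscle ankyrin protein that acts as a transcriptional cofactor, also fell, with 119, 50.7 and 123 against 159, 334 and 186 CPM and a log2 fold change of -1.23.

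Secreted proteins and receptors made up a further set. TNFRSF21, the death receptor DR6, had 61.5, 87.3 and 52.4 CPM in SDHBKO SDHAlow and 172, 191 and 195 CPM in SDHBKO samples, beside 61.3 and 73.0 CPM in parental cells, a log2 fold change of -1.46 (SE 0.23, adjusted p = 0.00313). IL11, a cytokine of the interleukin-6 family, had 26.6, 18.7 and 11.1 against 64.3, 53.4 and 42.1 CPM (parental 5.78 and 22.6), a log2 fold change of -1.50. In both of these the 3 samples of 1 group lay apart from the 3 of the other. IGFBP4, which binds insulin-like growth factors, had 336, 427 and 339.9 CPM in SDHBKO SDHAlow and 751, 819 and 814 CPM in SDHBKO samples (parental 405 and 449), a log2 fold change of -1.11. INHBB, a subunit of activin B, gave 4 reads against 29, a ratio of 8.62 of SDHBKO over SDHBKO SDHAlow (95% exact counting interval 3.03 to 33.7). WNT7B, a Wnt ligand, ZG16B and MFGE8 were lower as well, with log2 fold changes of -1.41, -1.55 and -0.97. On the higher side, MMP3, a matrix metalloproteinase, had 12.1, 8.21 and 15.6 against 0, 1.11 and 3.24 CPM, which is 35 reads against 4, and NTM, a neural adhesion protein, had 27.8, 24.6 and 18.9 against 2.74, 3.34 and 3.24 CPM, 73 reads against 8. Their log2 fold changes were 2.82 (adjusted p = 0.0867) and 2.87 (adjusted p = 0.00715), and parental cells had 2.31 and 3.98 CPM of MMP3 and 9.26 and 13.3 CPM of NTM.

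Other scattered genes that fell included ABCC3, an export pump for organic anions, with 3 reads against 36 and a ratio of 14.3 of SDHBKO over SDHBKO SDHAlow (95% exact counting interval 4.51 to 72.4). CRYBG1 gave 9 reads against 38. PRMT1, the main enzyme that methylates arginines asymmetrically, had 1298, 1077 and 774 CPM in SDHBKO SDHAlow and 3209, 1649.8 and 2119 CPM in SDHBKO samples, beside 724 and 766 CPM in parental cells, a log2 fold change of -1.15. ATF4, the transcription factor of the integrated stress response, had 156, 188 and 164 against 315, 236 and 326 CPM (parental 159.7 and 199), a log2 fold change of -0.78 (adjusted p = 0.0750). The signalling regulators ADAP1, RAB31, RASSF1, STARD8, PPP1R37, DUSP4 and STYXL1 had log2 fold changes from -1.34 to -0.86. Lower metabolic genes besides SDHA and TPI1 ranged from -1.16 to -0.73 and included PRKAG1 (a subunit of AMP-activated kinase), CERS5 (ceramide synthesis), GSTP1 (a glutathione transferase) and ECHS1 (beta-oxidation of fatty acids).

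SRF, the serum response factor, which turns on genes of the actin cytoskeleton and immediate early genes, was among the genes that rose. Its level was 790.5, 786 and 799 CPM in SDHBKO SDHAlow and 389, 429 and 314 CPM in SDHBKO samples, and 749.7 and 730.1 CPM in parental cells. The group means were 792 ± 6.71 and 377 ± 58.4 CPM (SD, n = 3), a log2 fold change of 1.07 (SE 0.18, adjusted p = 0.00481). Of 41 tested genes on a list of SRF and actin cytoskeleton genes, SRF and JUNB rose and TAGLN, TAGLN2, ANKRD1 and DSTN fell, where 1.51% of all tested genes passed the test in either direction; the list was chosen with earlier results of these data known. The median of the list was -0.08, with 22 of 41 genes below 0, against 0.01 and 48.9% over all tested genes. SRF binds a sequence known as the CArG box, and promoter windows from 250 bases before to 50 bases after the start of transcription were searched for it on both strands (RefSeq, GRCh38.p14). It was found in 6 of 133 windows (4.51%) of the 86 genes that differed and had a window, and in 454 of all 35116 windows (1.29%). A second motif, CATTCC, the core of the MCAT element that TEAD factors bind, was searched on both strands of the same windows and was found in 23 of 133 (17.3%) and in 4928 of 35116 (14%). The windows of the whole set belong to 27305 genes, many of them not tested here, so the shares compare unlike sets. A match is a description of letters and not a site of binding, and neither difference in share was tested. The window of SRF itself (chr6:43171019-43171318, plus strand) holds 2 matches, which begin 30 and 10 bases before the start of transcription, and it is shown 5' to 3' with them in capitals. The matches in the windows of 2 other genes are shown under it, ARHGDIB, which fell, and VOPP1, which rose. Both of these windows belong to starts of transcription inside the gene and not to its outermost start. Reads of 3' ends do not show which start was used.
SRF: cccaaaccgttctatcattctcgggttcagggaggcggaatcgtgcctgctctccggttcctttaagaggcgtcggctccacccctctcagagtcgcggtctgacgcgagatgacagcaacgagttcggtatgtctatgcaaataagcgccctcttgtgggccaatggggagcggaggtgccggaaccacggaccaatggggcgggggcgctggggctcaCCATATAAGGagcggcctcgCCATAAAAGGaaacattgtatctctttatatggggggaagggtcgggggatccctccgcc
ARHGDIB: CCTTATATGG
VOPP1: CCTTTATAGG
The other windows with a match belong to GSTP1, YBX3 and CAMTA2, which were lower in SDHBKO SDHAlow cells.

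Higher genes had mostly moderate changes, with a median of 1.02 on the log2 scale. UCA1, a long noncoding RNA known from carcinomas, had 379, 381 and 425 CPM in SDHBKO SDHAlow and 149, 146 and 146 CPM in SDHBKO samples, beside 226 and 264 CPM in parental cells, a log2 fold change of 1.43 (SE 0.19, adjusted p = 3.38e-04). Values within each group were close together. The antisense RNAs CEACAM16-AS1 and ZBED5-AS1 had log2 fold changes of 1.74 and 1.34. SLC25A1, the carrier that exports citrate from mitochondria for lipid synthesis, had 296, 347 and 394 against 120.4, 210.1 and 161 CPM (parental 442 and 496), a log2 fold change of 1.07 (adjusted p = 0.0142). NDUFA12, a subunit of complex I, had 76.0, 87.3 and 121 against 32.8, 48.9 and 43.2 CPM (parental 72.9 and 67.7), a log2 fold change of 1.18. SLC25A1 and NDUFA12 were higher in every SDHBKO SDHAlow sample than in any SDHBKO sample. FTH1, the heavy chain of ferritin, had 1796, 1516 and 2103 CPM in SDHBKO SDHAlow and 913, 1244 and 967 CPM in SDHBKO samples (parental 1626 and 1819), a log2 fold change of 0.79. XPO5, the exporter of precursor microRNAs, had 252, 267 and 302 against 151, 181 and 146 CPM (parental 261 and 238), a log2 fold change of 0.78. PUDP, a phosphatase of pseudouridine phosphate, and the ubiquitin ligase RFWD3 had log2 fold changes of 1.20 and 1.14. In the secretory pathway, EXT1 (heparan sulfate chains), CRTAP and COLGALT1 (collagen modification) and SSR3 (protein translocation) had log2 fold changes of 1.08, 1.02, 0.66 and 0.72. JUNB, an immediate early transcription factor, had 109, 135 and 101 against 71.2, 57.8 and 56.1 CPM with parental cells at 46.3 and 55.8 CPM (0.91), and it lost the call whichever of the 8 samples was left out.

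**Figure D4:**
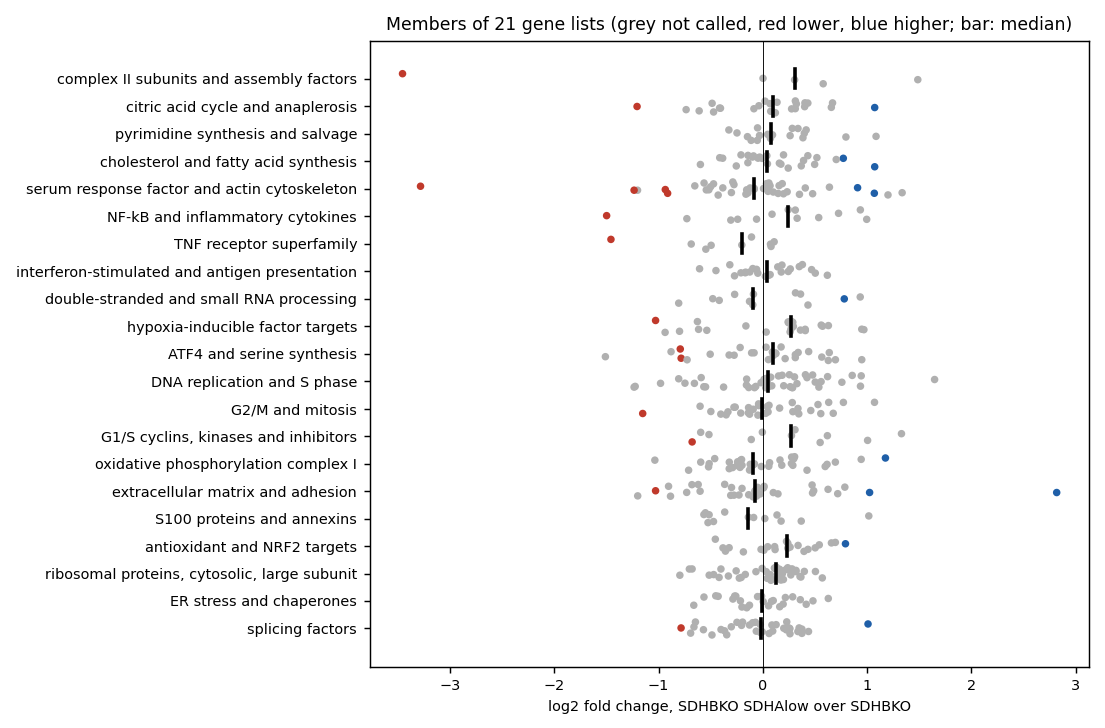
Log2 fold change of SDHBKO SDHAlow over SDHBKO (x axis) for the tested members of 21 gene lists (rows), with genes that passed the test in red (lower) or blue (higher), all others in grey, and the median of each list as a bar. List medians lie between -0.20 and 0.30, and no list has more than 6 genes that passed the test.

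Lists of pathway genes showed few differences each. None of 18 genes of pyrimidine synthesis and salvage, 48 of DNA replication, 24 of the interferon response and antigen presentation, 13 of the S100 and annexin families, 43 proteins of the large ribosomal subunit or 25 of endoplasmic reticulum stress passed the test, where 1.51% of all tested genes did. Without SDHBKO SDHAlow replicate 2, when 4.79% of all genes passed, the numbers were 1, 3, 0, 1, 4 and 1. In the citric acid cycle, SLC25A1 rose and SLC25A11 fell among 25 genes, and among 35 genes of complex I NDUFA12 rose. Of 28 genes of the ATF4 and serine pathway, ATF4 and SHMT2 fell. In the cell cycle, CDK4 fell among 11 genes of the G1/S transition and CDC25B among 32 of G2/M and mitosis, both inside runs. Of the genes of extracellular matrix and adhesion that are reported here, MMP3 and CRTAP rose. IL11 fell among 13 genes of NF-kB and inflammatory cytokines, TNFRSF21 among 9 TNF receptor genes, FTH1 rose among 22 antioxidant genes, XPO5 rose among 12 of small RNA processing, and SF3B4 rose and SNRPB fell among 37 splicing factors. In the lists of inflammatory cytokines and TNF receptors, a further 10 and 12 genes had no reads in any sample. IL6 and CXCL8 were among the 10, and whether their reads were lost in counting was not tested. SLC25A11, SHMT2 and SNRPB also lay inside runs, as did DSTN of the SRF and actin list. The medians of the 21 lists ranged from -0.20 for TNF receptors to 0.30 for complex II, as the plot of the lists shows. Counts of SDHA, FTH1, RPS10, TPI1, GSTP1 and PFDN5 may miss reads shared with pseudogenes, and KRT81 shares sequence with KRT86. RBCK1, CYB5D2, STAT6, TUBA4A, TAGLN and XPO5 end close to or within a gene on the opposite strand, and CEACAM16-AS1 and ZBED5-AS1 are antisense to other genes, so their reads could include those of the partner if strand was not used.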

How the data were processed

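RNA from 8 samples was sequenced with a kit that reads 3' ends (QuantSeq FWD). To make the deposited counts, the authors used Trimmomatic for trimming, Sortmerna to discard reads of ribosomal and mitochondrial origin, and STAR 2.5.2b to align to GRCh38 and to count reads per gene (versions from the submitters' processing notes). The deposited normalized signal is these counts divided by 1 size factor per sample, and here the values labelled SDHBKO replicate 1 belong to the raw counts labelled 3 and the reverse, so the raw counts were used for all results. The strand setting of the counting is not given in the sources used here. The 4 rows of unassigned reads (unmapped, multimapping, no feature, ambiguous) were left out of library sizes; multimapping reads were 9.72% to 16.1% and reads on no gene 5.55% to 9.21% of the reads in a file.

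Genes with a mean normalized count above 5 were tested by quasi-likelihood in edgeR 4.0.16 under R 4.3.3 (TMM normalization, 3 groups in 1 fit, 5 residual degrees of freedom, biological coefficient of variation 21.5%), with Benjamini-Hochberg adjustment over 7550 genes and a threshold of 0.1. CPM values are TMM normalized for tested genes, and those of SDHB, SDHD and summed marker lists use the reads counted on genes. Log2 levels by sample used CPM with a pseudocount of 1. Positions came from GENCODE release 44 on GRCh38, which matched 56948 of 58051 genes. Named genes were SDHA and its complex, the 12 largest changes without overlap in each direction, list members that passed the test and genes of the runs, with others grouped by role; a few genes that the rule names are not reported here. The members, lists and roles were chosen with earlier results of these data known. The scripts were tested on simulated data with 200 changed genes, taken from genes with higher counts, and with the same spread for all genes. In these data 10.1% (log2 change of 1) and 7.01% (log2 change of 2) of the calls were false. Intervals and floors cover counting error only. Of the listed genes, SOD2 had no match in the files used here. Alternatives were DESeq2 1.42.0, its size factors, 2 other filters, a GC offset (last 300 bases of each transcript), only the 2 groups compared, a replicate block, a threshold of 0.05, each sample left out, and other definitions of a run.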

Additional observations from a re-analysis of the deposited data

How the results depend on the processing

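SDHA kept its direction and its call under each alternative, with log2 fold changes from -3.71 to -3.26, and none of the 113 other genes that differed changed direction under 16 alternatives. With the GC offset, 37 genes were higher. A fit of only the 2 groups compared gave 64 genes (13 higher, 51 lower) with 4 runs of 20 genes, and a threshold of 0.05 gave 64 (15 higher, 49 lower) with 3 runs of 16 genes. Leaving out 1 sample at a time gave 39 to 362 genes (5 to 106 higher, 34 to 256 lower) and 1 to 26 runs with 6 to 149 genes. Runs with at most 5 genes between neighbours numbered 4 with 22 genes, and those of at least 4 genes numbered 4 with 28 genes. With at most 20 genes between neighbours there were 8 runs with 52 genes. These included a 12q run from PRKAG1 to ORMDL2, with 5 lower genes among 63 tested and a median of -0.35. Under this setting CENPV, BASP1, PTMS and TPI1 were inside runs too, so the split into run and scattered genes depends on the definition. With the replicate number as a block there were 59 genes (13 higher, 46 lower) and 2 runs with 12 genes. Deviations of same-numbered samples correlated between -0.27 and 0.09 over 7 pairs, with a mean of -0.07. This check cannot decide whether samples were paired. Groups were small, and SDHBKO numbers 1 and 3 are exchanged between the raw counts and the normalized signal. Why calls were lost under the block was not tested. DESeq2 gave 128 genes, of which 97 were among the 114 found with edgeR; it set no adjusted p for 13 of the 114. The cause of these shifts was not tested. At 773042 to 1427141 counted reads per sample, changes near 1 on the log2 scale were often below the limit of detection in simulated data, and lists with no gene past the test may hold smaller changes.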
